A study of Homo sapiens with 16 samples.

Results

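The EGFR/ERBB receptors and their EGF-like ligands were followed through paired sublines of triple-negative breast cancer cells that differ in the activity of a Wnt reporter. The members are 10 of the 57820 genes in the count tables, taken by gene symbol and not by a cut-off on measured values. Earlier results of these data were known when they were chosen. They are the 4 receptors EGFR, ERBB2, ERBB3 and ERBB4, and the 6 ligands AREG, TGFA, EREG, HBEGF, BTC and NRG1. All 10 passed the filter on low counts in both serum conditions, in which 16069 (low serum) and 15414 (standard serum) protein-coding genes were tested.

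Bulk RNA-Seq covered MDA-MB-231 and MDA-MB-436, a pair of mesenchymal triple-negative lines that had been transfected with the 7TGP vector, in which repeated Tcf sites drive eGFP, and kept under puromycin. Cells were sorted repeatedly for eGFP into 7TGP-POS and 7TGP-NEG sublines, so each subline is a sorted pool, and every group carries the vector. The 8 groups joined each line (MDA-MB-231 or MDA-MB-436) with each reporter state (7TGP-NEG or 7TGP-POS), grown either in low serum (0.5% FBS, harvested on day 3) or in standard serum (10% FBS, harvested on day 6). Each group had 2 biological replicates, which makes 16 libraries. No untransfected cells were analysed here, and because there is 1 sorted subline of each kind per line, the reporter state cannot be told apart from other differences between those sublines. The serum content, the day of harvest, the library chemistry and the sequencer also cannot be told apart, so no level was compared between the serum conditions.

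Library totals were 27918418 to 32667756 counts in low serum and 31827130 to 46044073 counts in standard serum. Mesenchymal markers had a summed level of 1708 to 5441 TPM (a transcript's share of its library, scaled for gene length) in MDA-MB-231 and 686.4 to 1215 TPM in MDA-MB-436, although CDH2 and TWIST1 stayed under 1 TPM in MDA-MB-231. CDH1, ESR1 and PGR stayed under 1 TPM in all 16 libraries. The summed level of the 9 luminal or epithelial markers was 1244 to 1338 TPM in MDA-MB-231 7TGP-NEG and 750.8 to 837.5 TPM in MDA-MB-231 7TGP-POS in low serum. By gene, 1 of these 9 passed the test higher and 3 lower there, with a median log2 fold change of 0.05. In standard serum the luminal sums of this line were 1694 to 1825 and 1384 to 1466 TPM. In MDA-MB-436 the luminal sums of the reporter states overlapped in both serum conditions. The summed mesenchymal level in MDA-MB-231 7TGP-NEG and 7TGP-POS cells in low serum was 3309 to 3352 and 1708 to 1912 TPM. In standard serum the mesenchymal sum was 4962 to 5441 TPM in 7TGP-NEG and 2950 to 3108 TPM in 7TGP-POS cells of MDA-MB-231, but 722.9 to 780.8 and 1168 to 1215 TPM in those of MDA-MB-436. The groups of MDA-MB-436 overlapped in low serum. Counted by gene, 3 of the 9 mesenchymal markers passed the test higher and 1 lower with the reporter on in MDA-MB-231 in low serum. Their median log2 fold change was 0.27, so the smaller sum there does not stand for most of these markers. In standard serum 2 were higher and 2 lower (median 0.21). In MDA-MB-436 they were 6 higher and 2 lower in low serum (median 0.46), and 6 higher and 1 lower in standard serum (median 0.66). Among leukocyte markers, PTPRC rose by 1.14 (adjusted p = 3.61e-06) and CD14 by 0.39 (adjusted p = 0.0197) on the log2 scale in MDA-MB-231 7TGP-POS cells in low serum, and CD14 in MDA-MB-436 by 0.98 in low serum (adjusted p = 1.15e-08), whereas it fell by 0.68 in standard serum (adjusted p = 0.00336). The part of these shifts in the results below was not tested. The matched endothelial markers CDH5 and VWF summed to at most 0.68 TPM in every library. Of 11 canonical Wnt feedback targets, those that passed the test in low serum were 4 higher and 1 lower with the reporter on in MDA-MB-231, and 2 higher and 3 lower in MDA-MB-436. In standard serum they were 1 higher and 0 lower in MDA-MB-231, and 1 higher and 3 lower in MDA-MB-436. Of all genes tested, 38.9% passed in MDA-MB-231 and 52% in MDA-MB-436 under low serum, against 33% and 49.5% under standard serum.

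EGFR and its relatives are receptor tyrosine kinases at the cell surface that pair up when a ligand binds and then signal through the RAS-MAPK and PI3K routes. ERBB2 has no known ligand of its own and acts as the favoured partner, ERBB3 has little kinase activity and recruits PI3K, and ERBB4 is a full kinase that binds neuregulins. The ligands are made as membrane-bound precursors that ADAM proteases cut free. Amphiregulin (AREG) and TGF-alpha (TGFA) bind EGFR, whereas epiregulin (EREG), HB-EGF (HBEGF) and betacellulin (BTC) bind EGFR and ERBB4, and neuregulin 1 (NRG1) binds ERBB3 and ERBB4. EGFR protein is often abundant in triple-negative tumours, which lack ERBB2 amplification.

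On the length-scaled TPM values deposited by the authors, EGFR was the most abundant of the 4 receptors in every library and ERBB4 the least. In low serum, EGFR was at 101 and 93.7 TPM (replicates 1 and 2) in 7TGP-NEG and 95.2 and 85.8 TPM in 7TGP-POS cells of MDA-MB-231, and at 52.5 and 46.7 TPM in 7TGP-NEG and 39.7 and 42.8 TPM in 7TGP-POS cells of MDA-MB-436. ERBB2 lay between 16.9 and 27.8 TPM, ERBB3 between 0.94 and 5.49 TPM, and ERBB4 between 0.08 and 0.29 TPM in the same 8 libraries. EGFR therefore made up most of the summed receptor TPM, from 67.8% ± 0.718 in MDA-MB-436 7TGP-POS to 80.9% ± 0.741 in MDA-MB-231 7TGP-POS (SD, n = 2 each). In standard serum the corresponding shares ran from 65.2% ± 1.08 in MDA-MB-436 7TGP-NEG to 84.5% ± 0.951 in MDA-MB-231 7TGP-POS.

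The lines differed in which ligand led. In MDA-MB-231, HBEGF mRNA was the most abundant of the 6 ligands in every library, with 40.1% ± 0.525 of the summed ligand TPM in 7TGP-NEG and 41.9% ± 1.55 in 7TGP-POS cells in low serum. In standard serum these shares were 49.9% ± 1.3 and 55.5% ± 0.884 (SD, n = 2 each). In MDA-MB-436, EREG led in every library, with 63.6% ± 0.376 in 7TGP-NEG and 52.1% ± 0.394 in 7TGP-POS cells in low serum. In standard serum its shares were 45.4% ± 0.197 and 46.5% ± 0.572. The summed TPM of the 6 ligands in low serum was 83.6 ± 7.07 in MDA-MB-436 7TGP-NEG and 36.9 ± 3.3 in MDA-MB-436 7TGP-POS cells, and the replicates of these groups did not overlap. In MDA-MB-231 in standard serum it was 249 ± 9.24 in 7TGP-NEG and 331 ± 9.15 in 7TGP-POS cells. The sums were 121 ± 3.22 and 142 ± 12.4 in MDA-MB-231 in low serum, and 54.7 ± 0.962 and 60 ± 0.0212 in MDA-MB-436 in standard serum (7TGP-NEG and 7TGP-POS). These sums are not corrected for the shift of all genes on the TPM scale. In low serum their median log2 fold change on log2(TPM + 1) was -0.13 in MDA-MB-231 and -0.155 in MDA-MB-436. AREG shares are low estimates, since reads shared with a copy of the gene are not counted (described with the chromosome 4 genes).

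**Figure D1:**
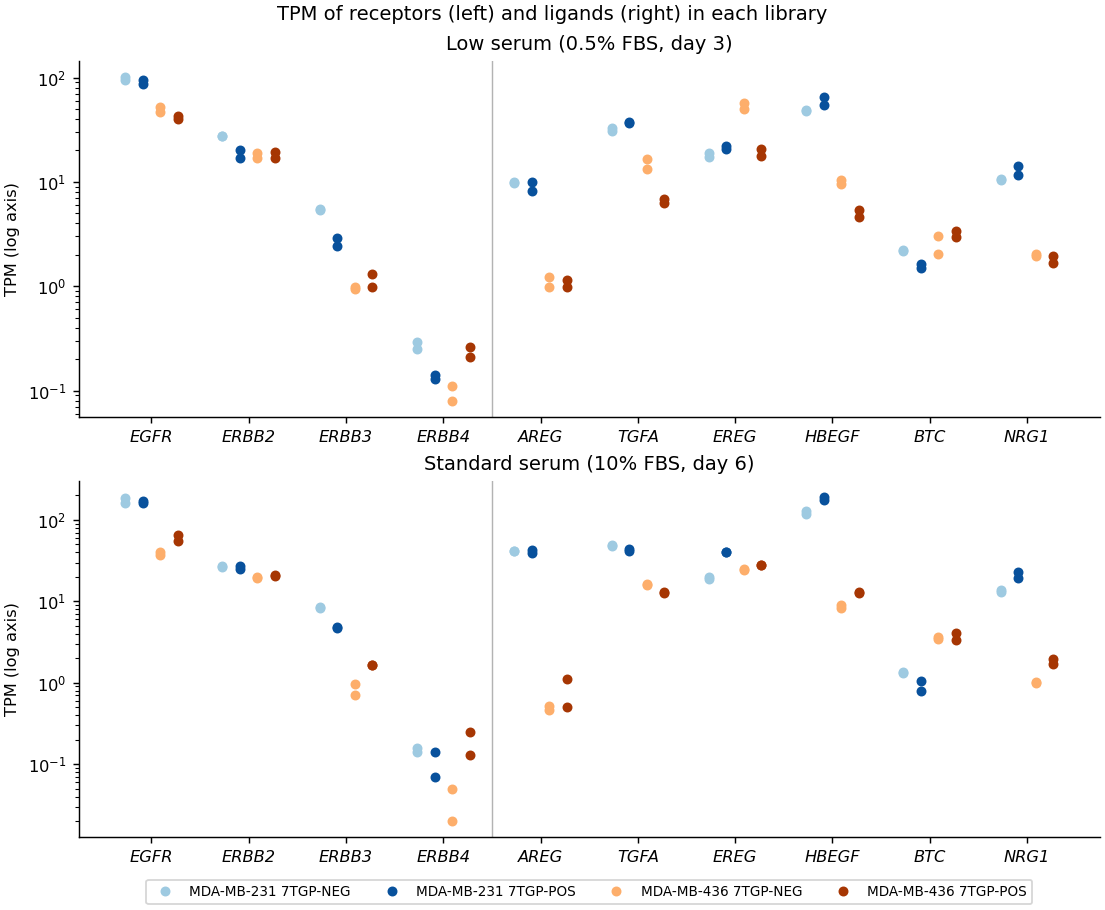
TPM on a log axis for the 4 receptors (left of the line) and the 6 ligands (right), with 1 point per library, 2 replicates per group, in low serum (top) and standard serum (bottom). EGFR is the highest receptor and ERBB4 the lowest in each group, and HBEGF in MDA-MB-231 and EREG in MDA-MB-436 are the highest ligands.

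**Figure D2:**
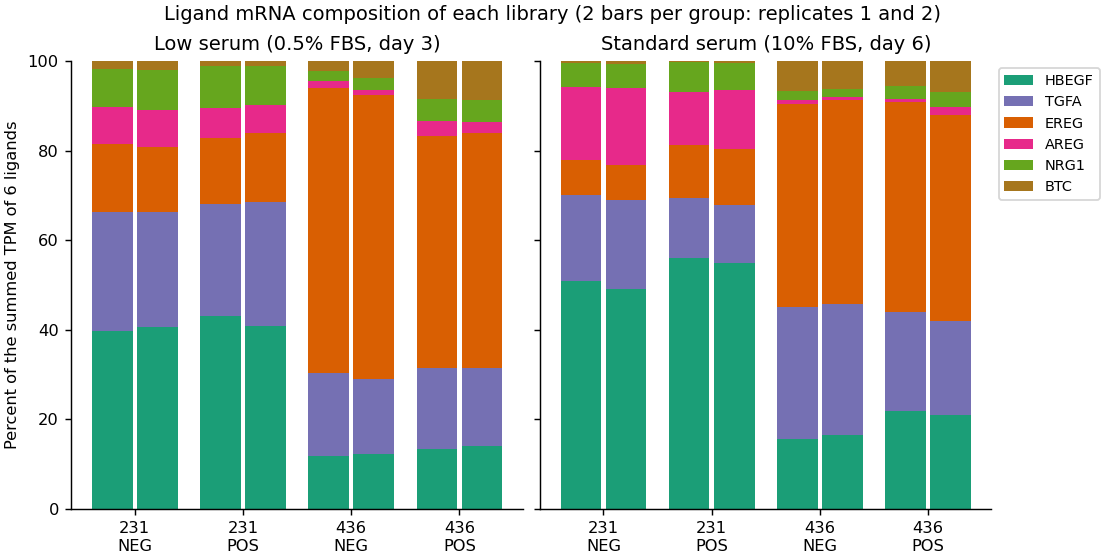
Percent of the summed TPM of the 6 ligands held by each, with 1 stacked bar per library and the 2 replicates of a group side by side. HBEGF is the largest part of each MDA-MB-231 bar (41.9% ± 1.55 in 7TGP-POS cells in low serum) and EREG the largest part of each MDA-MB-436 bar (52.1% ± 0.394 in 7TGP-POS cells in low serum).

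The reporter comparison set 7TGP-POS against 7TGP-NEG cells of the same line and serum, which asks how the family differs with the sorted Wnt reporter state. A gene passed where the quasi-likelihood test of edgeR gave an adjusted p under 0.05 over all genes tested, and was a DEG where the log2 fold change was also at least 1 in size. In low serum, 7 of the 10 members passed in MDA-MB-231 (38.9% of all genes tested passed) and 7 in MDA-MB-436 (52% of all genes). In standard serum, 5 passed in MDA-MB-231 (33% of all genes) and 6 in MDA-MB-436 (49.5% of all genes). Most of these differences were under 2-fold: DEGs numbered 0 in MDA-MB-231 in low serum (5.9% of all genes), 2 in MDA-MB-436 in low serum (10.5%), 1 in MDA-MB-231 in standard serum (7.69%) and 1 in MDA-MB-436 in standard serum (12.5%). In these bulk samples, fewer cells that express a gene and less RNA per cell cannot be told apart.

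In low serum, 6 of the 10 members passed in both lines with opposite directions. ERBB2, ERBB3 and ERBB4 fell and TGFA, EREG and HBEGF rose with the reporter on in MDA-MB-231, and each of these 6 genes went the other way in MDA-MB-436. Of all genes tested, 11.6% passed in both lines with opposite signs and 11.9% with the same sign, and 0 of the 10 members passed in both lines with the same sign. The median log2 fold change of the receptors was -0.58 in MDA-MB-231 and 0.4 in MDA-MB-436, and that of the ligands was 0.45 in MDA-MB-231 and -0.33 in MDA-MB-436, beside -0.01 and 0.01 over all genes. In standard serum, 1 member (ERBB3) passed in both lines with opposite signs (9.15% of all genes) and 3 (TGFA, HBEGF and NRG1) with the same sign (9.63%). The receptor medians there were -0.3 in MDA-MB-231 and 0.73 in MDA-MB-436. The ligand medians had the same sign in both lines, at 0.23 and 0.27.

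The scale of the values mattered for these opposite calls. On log2(TPM + 1) with limma, 0 of the 10 members passed in both lines in low serum, since each of the 6 genes lost its call in at least 1 line, whereas the difference between the lines passed for 7 members as against 8 in the count fit. On that scale the median of all genes lay at -0.13 in MDA-MB-231 and -0.155 in MDA-MB-436. With the DESeq2 Wald test, 5 members passed in both lines with opposite signs.

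**Figure D3:**
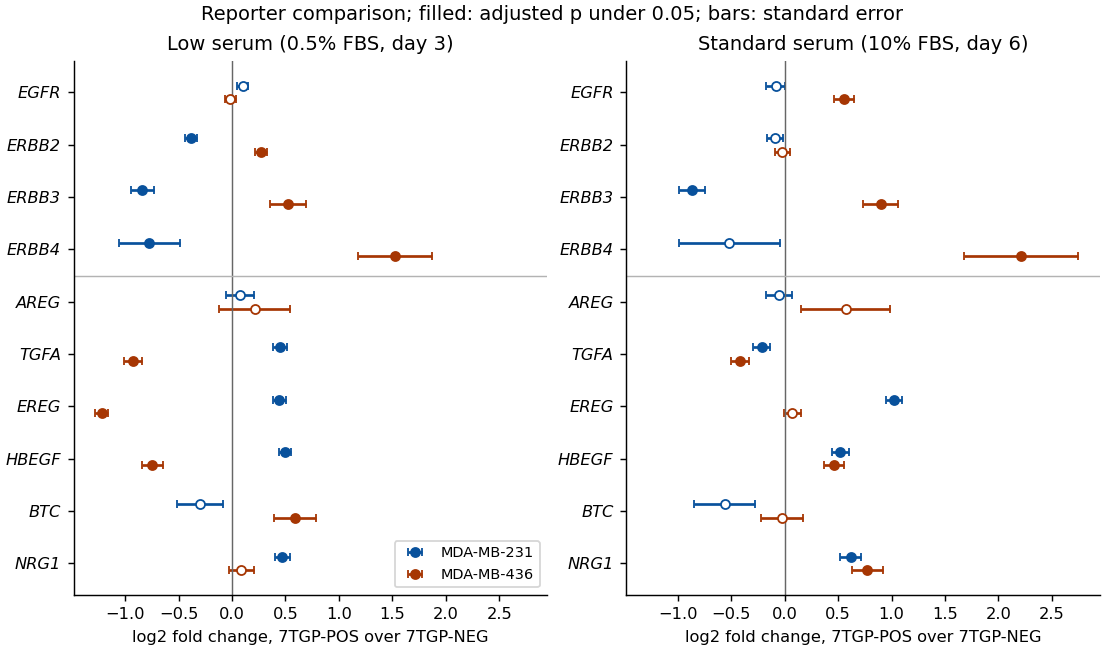
Log2 fold change of 7TGP-POS over 7TGP-NEG cells for each member in MDA-MB-231 (blue) and MDA-MB-436 (brown), low serum on the left and standard serum on the right. Bars are standard errors and filled points passed at an adjusted p under 0.05. In low serum the points of ERBB2, ERBB3, ERBB4, TGFA, EREG and HBEGF lie on opposite sides of 0 in the lines.

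ERBB3 was the receptor with opposite changes in both serum conditions. In low serum its CPM (counts relative to library size, scaled with TMM factors) was 21.6 and 21.6 in MDA-MB-231 7TGP-NEG and 12.2 and 12 in MDA-MB-231 7TGP-POS libraries, a log2 fold change of -0.84 (standard error, SE, 0.11, adjusted p = 2.05e-08). In MDA-MB-436 it was 2.69 and 3.12 in 7TGP-NEG and 4.96 and 3.29 in 7TGP-POS libraries, a log2 fold change of 0.52 (SE 0.17, adjusted p = 0.0089). The groups did not overlap, but the MDA-MB-436 value rested on replicate 1 of each group: it was 0.14 (adjusted p = 0.613) without the first 7TGP-POS library and 0.41 (adjusted p = 0.109) without the first 7TGP-NEG library.

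In standard serum ERBB3 was at 22.1 and 21.5 CPM in MDA-MB-231 7TGP-NEG and 12.2 and 11.8 CPM in 7TGP-POS libraries (log2 fold change -0.87, SE 0.12, adjusted p = 1.74e-05). In MDA-MB-436 it was at 2.26 and 1.61 CPM in 7TGP-NEG and 3.6 and 3.57 CPM in 7TGP-POS libraries (log2 fold change 0.9, SE 0.16, adjusted p = 0.000157). Both pairs of groups stood apart. The MDA-MB-436 call held with any 1 of its 4 libraries left out, with log2 fold changes of 0.66 to 1.14.

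ERBB4 had few reads, from 3 to 45 counts per library. In MDA-MB-436 in low serum it had 11 and 14 counts in 7TGP-NEG and 35 and 36 in 7TGP-POS libraries, and rose by a log2 fold change of 1.53 (SE 0.35, adjusted p = 0.000254). In standard serum it had 3 and 7 counts in MDA-MB-436 7TGP-NEG and 40 and 16 in 7TGP-POS libraries, a log2 fold change of 2.21 (SE 0.53, adjusted p = 0.00216). The groups did not overlap in either serum, but the standard serum call was lost without the first 7TGP-POS library (log2 fold change 1.57, adjusted p = 0.066). In MDA-MB-231 in low serum, ERBB4 had 41 and 45 counts in 7TGP-NEG and 24 and 24 in 7TGP-POS libraries (log2 fold change -0.77, SE 0.29, adjusted p = 0.029), and this call was lost without any 1 of the 4 libraries, with adjusted p values of 0.0599 to 0.146. Its log2 fold change in MDA-MB-231 in standard serum was -0.52 (SE 0.47, adjusted p = 0.45), with 17 and 18 against 8 and 18 counts.

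ERBB2 changed in low serum. It was at 132 and 131 CPM in MDA-MB-231 7TGP-NEG and 102 and 99.5 CPM in 7TGP-POS libraries, a log2 fold change of -0.38 (SE 0.05, adjusted p = 7.05e-08). In MDA-MB-436 it was at 64.4 and 63.8 CPM in 7TGP-NEG and 76.6 and 78.3 CPM in 7TGP-POS libraries (log2 fold change 0.27, SE 0.05, adjusted p = 4.4e-05), with no overlap in either line. On log2(TPM + 1) the MDA-MB-436 value was 0.02 (adjusted p = 0.901), and the MDA-MB-231 value kept its call at -0.56 (adjusted p = 0.00365). In standard serum the log2 fold changes of ERBB2 were -0.09 (adjusted p = 0.392) in MDA-MB-231 and -0.02 (adjusted p = 0.853) in MDA-MB-436. The ERBB2 gene overlaps PGAP3 and MIEN1 on the opposite strand, and whether the counting used the strand is not given in the sources used here.

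EGFR passed in 1 of the 4 comparisons. In standard serum it was at 131 and 138 CPM in MDA-MB-436 7TGP-NEG and 215 and 179.9 CPM in 7TGP-POS libraries, a log2 fold change of 0.55 (SE 0.09, adjusted p = 8.62e-05) with no overlap. Its 7TGP-POS replicates lay further apart than those of 7TGP-NEG. The other log2 fold changes of EGFR were 0.1 (SE 0.05) in MDA-MB-231 and -0.02 (SE 0.05) in MDA-MB-436 in low serum, and -0.08 (SE 0.09) in MDA-MB-231 in standard serum, with adjusted p values of 0.123, 0.835 and 0.532. The low serum results depended on the setting. In MDA-MB-231 EGFR passed in edgeR fits of only the groups compared (0.13, adjusted p = 0.0481) and without TMM factors (0.12, adjusted p = 0.0399). In MDA-MB-436 it passed lower with limma on log2(TPM + 0.1) (-0.26, adjusted p = 0.0499).

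EREG, which had the largest change of the 6 ligands, was called a DEG in a different line in each serum. In low serum it was at 107 and 104 CPM in MDA-MB-436 7TGP-NEG and 44.9 and 45.5 CPM in 7TGP-POS libraries, a log2 fold change of -1.22 (SE 0.06, adjusted p = 8.49e-21). In MDA-MB-231 it was at 49.6 and 45.1 CPM in 7TGP-NEG and 62.4 and 66.4 CPM in 7TGP-POS libraries, and rose by 0.44 (SE 0.06, adjusted p = 1.14e-07). The fall in MDA-MB-436 brought EREG from above both MDA-MB-231 groups to the level of MDA-MB-231 7TGP-NEG cells on the CPM scale.

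In standard serum EREG was at 33.7 and 32.6 CPM in MDA-MB-231 7TGP-NEG and 68 and 67.1 CPM in 7TGP-POS libraries, a log2 fold change of 1.02 (SE 0.08, adjusted p = 1.16e-08). In MDA-MB-436 it was at 37.8 and 38 CPM in 7TGP-NEG and 40.4 and 39.3 CPM in 7TGP-POS libraries (log2 fold change 0.07, SE 0.08, adjusted p = 0.457). The MDA-MB-231 groups were far apart, and the MDA-MB-436 groups lay next to each other without overlapping.

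HBEGF rose in 3 of the 4 comparisons and fell in the other. In low serum it was at 68 and 65.8 CPM in MDA-MB-231 7TGP-NEG and 95.9 and 93.1 CPM in 7TGP-POS libraries (log2 fold change 0.5, SE 0.06, adjusted p = 1.87e-09). In MDA-MB-436 in low serum it was at 10.3 and 10.5 CPM in 7TGP-NEG and 6.06 and 6.36 CPM in 7TGP-POS libraries (log2 fold change -0.74, SE 0.1, adjusted p = 2.09e-08). Both pairs of groups stood apart. In standard serum the log2 fold changes were 0.52 (SE 0.08, adjusted p = 3.24e-05) in MDA-MB-231, from 117 and 108 to 167 and 156 CPM, and 0.46 (SE 0.1, adjusted p = 0.00063) in MDA-MB-436, from 6.82 and 7.24 to 9.93 and 9.43 CPM.

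TGFA fell in MDA-MB-436 7TGP-POS cells in both serum conditions. In low serum it went from 27 and 24.1 CPM in 7TGP-NEG to 13.7 and 13.2 CPM in 7TGP-POS libraries (log2 fold change -0.93, SE 0.08, adjusted p = 4.21e-12), and in standard serum from 21.5 and 21.2 to 16.5 and 15.4 CPM (log2 fold change -0.42, SE 0.08, adjusted p = 0.000463). In MDA-MB-231 in low serum it rose from 74.5 and 68.8 CPM to 92 and 104 CPM (log2 fold change 0.45, SE 0.06, adjusted p = 2.2e-07). The groups did not overlap in these comparisons. In MDA-MB-231 in standard serum the log2 fold change was -0.21 (SE 0.08, adjusted p = 0.0464), and leaving out any 1 of the 4 libraries ended the call, with adjusted p values of 0.0586 to 0.277.

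NRG1 rose in 3 comparisons. It went from 37.2 and 37.5 CPM to 52.8 and 50.8 CPM in MDA-MB-231 in low serum (log2 fold change 0.47, SE 0.07, adjusted p = 2.93e-07) and from 31 and 30.5 to 50.9 and 43.7 CPM in standard serum (log2 fold change 0.62, SE 0.1, adjusted p = 7.29e-05). In MDA-MB-436 in standard serum it went from 2.09 and 1.98 to 3.23 and 3.77 CPM (log2 fold change 0.78, SE 0.15, adjusted p = 0.000277). These groups did not overlap. In MDA-MB-436 in low serum the log2 fold change was 0.09 (SE 0.12, adjusted p = 0.566).

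On log2(TPM + 1) the 4 rises of TGFA, EREG, HBEGF and NRG1 in MDA-MB-231 in low serum were 0.24, 0.23, 0.29 and 0.25, with adjusted p values of 0.155, 0.15, 0.091 and 0.185 from limma. Relative to the median of all genes on that scale they were 0.37, 0.36, 0.42 and 0.38. The falls of TGFA, EREG and HBEGF in MDA-MB-436 in low serum kept their calls, at -1.06, -1.42 and -0.86.

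BTC and AREG changed least clearly. BTC had 20 to 115 counts per library and passed in 1 comparison, MDA-MB-436 in low serum, where it was at 1.89 and 3.08 CPM in 7TGP-NEG and 3.65 and 3.74 CPM in 7TGP-POS libraries (log2 fold change 0.59, SE 0.19, adjusted p = 0.00945). That call was lost without the first 7TGP-NEG library (log2 fold change 0.25, adjusted p = 0.385) or the second 7TGP-POS library (0.54, adjusted p = 0.0523). AREG passed in none of the 4 comparisons, with log2 fold changes of -0.05 to 0.57 and adjusted p values of 0.288 to 0.803.

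**Figure D4:**
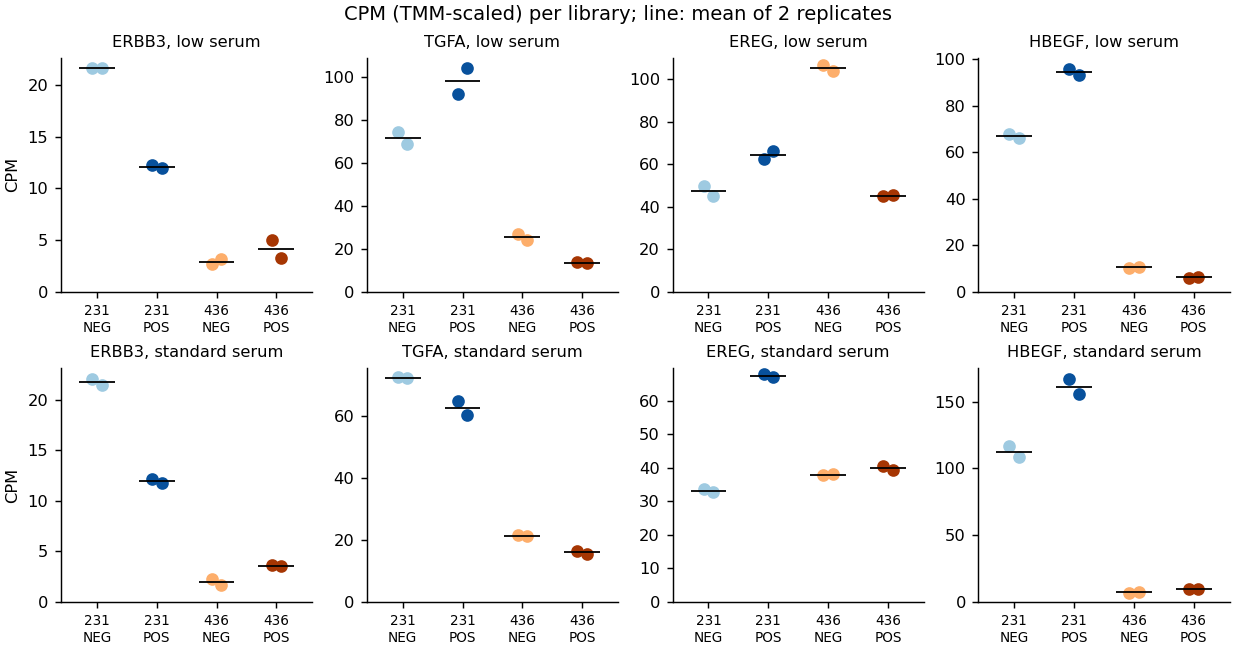
CPM of ERBB3, TGFA, EREG and HBEGF in each library of the 4 groups, low serum in the top row and standard serum in the bottom row, with a line at the mean of the 2 replicates and axes that start at 0. In low serum EREG falls from 107 and 104 CPM to 44.9 and 45.5 CPM in MDA-MB-436, while in standard serum it rises from 33.7 and 32.6 CPM to 68 and 67.1 CPM in MDA-MB-231.

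The difference between the lines in the reporter comparison was tested as an interaction, the log2 fold change in MDA-MB-231 minus that in MDA-MB-436. It passed for 8 of the 10 members in low serum (45.7% of all genes), 5 of them at 2-fold or more (11.7%), and for 4 in standard serum (41.2%), 2 of them at 2-fold or more (13.8%). In low serum it was largest in size for ERBB4 (-2.3, SE 0.45, adjusted p = 4.26e-05), EREG (1.66, SE 0.09, adjusted p = 9.69e-20) and TGFA (1.38, SE 0.1, adjusted p = 7.7e-14). ERBB3 had -1.36 (SE 0.2, adjusted p = 3.39e-07), HBEGF 1.24 (SE 0.11, adjusted p = 3.53e-12) and ERBB2 -0.66 (SE 0.07, adjusted p = 1.23e-09). In standard serum the members that passed were ERBB4 (-2.73, SE 0.73, adjusted p = 0.00545), ERBB3 (-1.76, SE 0.2, adjusted p = 1.51e-06), EREG (0.95, SE 0.11, adjusted p = 1.71e-06) and EGFR (-0.64, SE 0.13, adjusted p = 0.000708). For TGFA and HBEGF it did not pass in standard serum, at 0.21 (adjusted p = 0.167) and 0.06 (adjusted p = 0.754). BTC (-0.89, adjusted p = 0.00986) and NRG1 (0.38, adjusted p = 0.0198) passed in low serum, but BTC lost its call without the first MDA-MB-436 7TGP-NEG library (adjusted p = 0.152) and NRG1 without the second (adjusted p = 0.166).

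Set against each other directly, the lines gave more members that passed than the reporter states did. The study's methods name a different culture medium for each line, whereas the labels name 1 for both, so the line and its medium cannot be told apart in these comparisons. Between the 7TGP-NEG sublines, 9 of the 10 members passed in low serum (79.2% of all genes) and 10 in standard serum (78.8%), and 9 and 8 of them were DEGs (41.9% and 46.7%). Between the 7TGP-POS sublines, 9 passed in low serum (78.5%) and 9 in standard serum (79.4%), and 6 and 7 of them were DEGs (38.9% and 45.4%). In both serum conditions, 7 members (EGFR, ERBB2, ERBB3, AREG, TGFA, HBEGF and NRG1) had a higher CPM in every MDA-MB-231 library than in every MDA-MB-436 library, as did 27% of the 15286 genes tested in both.

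AREG differed most between the 7TGP-NEG sublines. In standard serum it was at 20.3 and 20.9 CPM in MDA-MB-231 7TGP-NEG and 0.232 and 0.198 CPM in MDA-MB-436 7TGP-NEG libraries (log2 fold change 6.57, SE 0.22, adjusted p = 3.89e-15), where each MDA-MB-436 library held 8 counts. HBEGF was higher in MDA-MB-231 7TGP-NEG cells by 2.69 (SE 0.07) in low serum and 4 (SE 0.09) in standard serum, and NRG1 by 2.81 (SE 0.09) and 3.92 (SE 0.13). EREG was the exception among the abundant ligands: it was lower in MDA-MB-231 than in MDA-MB-436 7TGP-NEG cells, with a log2 fold change of -1.15 (SE 0.06, adjusted p = 5.57e-21) in low serum and -0.19 (SE 0.08, adjusted p = 0.0329) in standard serum, the latter call being lost without any 1 of the 4 libraries. Between the 7TGP-POS sublines EREG was higher in MDA-MB-231, by 0.51 (adjusted p = 7.87e-10) in low and 0.76 (adjusted p = 3.93e-08) in standard serum. On log2(TPM + 1) with limma the low serum value was 0.15 (adjusted p = 0.27), which is no call. BTC was lower in MDA-MB-231 in standard serum, with log2 fold changes of -1.24 between 7TGP-NEG and -1.77 between 7TGP-POS sublines.

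The other parts of the pathway were read from lists of genes. Among 5 other ligands, of which 4 were tested, NRG2, a neuregulin, fell in MDA-MB-231 7TGP-POS cells, from 12.8 and 12.1 to 5.88 and 5.37 CPM in low serum (log2 fold change -1.14, adjusted p = 3.66e-10) and from 6.45 and 6.06 to 2.15 and 1.55 CPM in standard serum (-1.76, adjusted p = 1.18e-06). EGF itself rose by 1.14 in MDA-MB-231 (adjusted p = 0.000293) and fell by 1.01 on the log2 scale in MDA-MB-436 (adjusted p = 0.0015) in standard serum, at 0.59 to 3.26 TPM. In low serum its log2 fold changes were 0.6 (adjusted p = 4.26e-05) and -0.67 (adjusted p = 0.000929).

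Among the 13 inhibitors and turnover factors of the receptors, LRIG1 changed most. It encodes a transmembrane protein that binds ERBB receptors and lowers their level. LRIG1 was at 2.78 and 2.42 CPM in MDA-MB-231 7TGP-NEG and 58 and 57.1 CPM in 7TGP-POS libraries in low serum (log2 fold change 4.47, SE 0.09, adjusted p = 4.88e-33). In standard serum it had 13 and 4 counts in MDA-MB-231 7TGP-NEG and 458 and 473 in 7TGP-POS libraries (log2 fold change 5.67, SE 0.2, adjusted p = 1.98e-13). In MDA-MB-436 it was high in both states, at 101 and 96.4 against 126 and 127 CPM in low serum (log2 fold change 0.35, adjusted p = 4.95e-07), and 0.29 (adjusted p = 0.0116) in standard serum. Of the 13 genes of this list, 5 passed higher and 2 lower in MDA-MB-231 in each serum. In MDA-MB-436 they were 8 higher and 4 lower in low serum, and 9 higher and 0 lower in standard serum. Their median log2 fold changes were 0.07, 0.22, -0.01 and 0.32 in MDA-MB-231 and MDA-MB-436 in low serum and in MDA-MB-231 and MDA-MB-436 in standard serum. In the same order, 38.9%, 52%, 33% and 49.5% of all genes tested passed.

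Of 7 shedding and trafficking genes, 5 passed higher and 1 lower in MDA-MB-231 and 4 higher and 1 lower in MDA-MB-436 in low serum, and 1 higher and 1 lower and 3 higher and 1 lower in standard serum. ADAM12, a metalloprotease able to cut HB-EGF, went from 2.28 and 2.53 to 16.5 and 15.6 CPM in MDA-MB-436 in low serum (log2 fold change 2.75, SE 0.14, adjusted p = 3.04e-20) and from 2.26 and 2.21 to 21.7 and 17.7 CPM in standard serum (3.14, SE 0.15, adjusted p = 1.34e-11). It was also higher in MDA-MB-231 7TGP-POS cells in low serum (log2 fold change 1.64, adjusted p = 0.000355), at 7 and 11 against 28 and 26 counts.

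Of 15 MAPK output and feedback genes, more passed lower than higher in MDA-MB-231: 8 against 3 in low serum and 7 against 2 in standard serum. In MDA-MB-436, 6 passed higher and 4 lower in low serum, and 10 higher and 1 lower in standard serum. The median log2 fold changes of this list were -0.15 in MDA-MB-231 and 0.03 in MDA-MB-436 in low serum, beside -0.01 and 0.01 over all genes. In standard serum they were -0.12 and 0.39, beside 0 and 0.005. The shares of all genes that passed higher or lower are not given here. SPRY1, a feedback inhibitor of receptor tyrosine kinase signalling, fell by 0.42 on the log2 scale in MDA-MB-231 in low serum (adjusted p = 1.47e-07) and rose by 1.41 in MDA-MB-436 (adjusted p = 3.96e-17). DUSP4, a MAPK phosphatase, rose in MDA-MB-436 by 1.19 in low serum (adjusted p = 3.37e-21) and 1.14 in standard serum (adjusted p = 1.2e-09). Of 16 adaptors and proximal signalling genes, 7 passed in each line in low serum, and in standard serum 3 and 4 did, and 0 were DEGs. Over all genes, 33% to 52% passed in these 4 comparisons.

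The genes lie on several chromosomes. On GRCh37 (the build of the files), EGFR spans chr7:55086710-55279321, ERBB2 chr17:37844167-37886679, ERBB3 chr12:56470583-56497289 and ERBB4 chr2:212240442-213403565, and among the ligands TGFA spans chr2:70674416-70781325 and HBEGF chr5:139712428-139726188. The changes of the members were set beside the median of their 20 nearest tested genes. ERBB3 at -0.84 and 0.52 in low serum had neighbour medians of -0.03 and 0.05, TGFA at 0.45 and -0.93 had 0.03 and -0.27, and HBEGF at 0.5 and -0.74 had -0.01 and 0.1 (MDA-MB-231 and MDA-MB-436). In each case the neighbours' median was smaller in size than the member's change. Of the 4 listed neighbours of ERBB2, 0 passed in MDA-MB-231 (38.9% of all genes) and 1 in MDA-MB-436 (52%) in low serum. In standard serum, 2 passed higher in MDA-MB-231 and 3 lower in MDA-MB-436, where 33% and 49.5% of all genes passed in either direction.

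EREG (chr4:75230862-75254466), AREG (chr4:75310853-75320722) and BTC (chr4:75669969-75719733) lie in that order on chromosome 4, beyond the CXC chemokine genes. Around EREG, the neighbour medians in low serum were 0.84 in MDA-MB-231 and 0.18 in MDA-MB-436, below which EREG lay in both lines, at 0.44 and -1.22. In standard serum they were 0.39 and 0.55, beside 1.02 and 0.07 for EREG. CXCL8, CXCL1, CXCL3 and CXCL2 rose in MDA-MB-231 7TGP-POS cells by 1.55 to 3.71 in low serum and by 1.65 to 2.98 in standard serum. In MDA-MB-436 their log2 fold changes were 0.08 (CXCL2, which did not pass) to 1.46 in low serum and 0.88 to 2.43 in standard serum. CXCL5 rose in MDA-MB-231 (3.36, SE 1.03, in low and 2.1, SE 0.63, in standard serum) but fell in MDA-MB-436 (-1.13 and -3.49). CXCL6 rose in MDA-MB-436 (10.4, SE 0.57, and 6.43, SE 0.53) and did not pass in MDA-MB-231. CXCL6 had only 350 counts in low and 232 in standard serum, summed over all libraries of that serum. The size of its change is therefore uncertain. AREG, the next member after EREG, had log2 fold changes of 0.07 and 0.21 (low serum) and of -0.05 and 0.57 (standard serum), none of which passed.

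**Figure D5:**
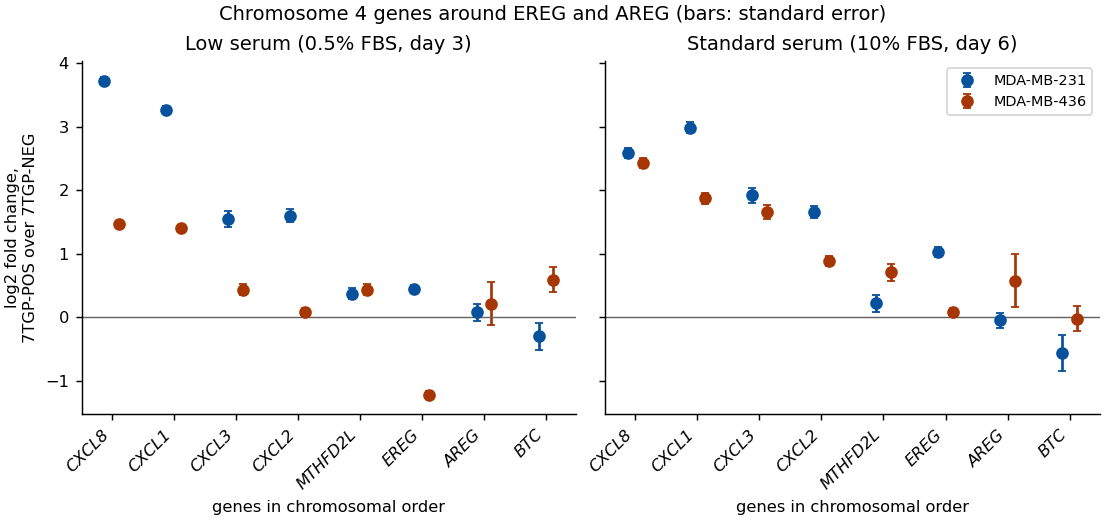
Log2 fold change of 7TGP-POS over 7TGP-NEG cells for 8 genes of chromosome 4 in their order along it, with standard errors, in MDA-MB-231 (blue) and MDA-MB-436 (brown). The 4 chemokine genes drawn lie at or above 0 in each panel, whereas EREG lies at -1.22 in MDA-MB-436 in low serum and at 1.02 in MDA-MB-231 in standard serum. CXCL5 and CXCL6 are not drawn, and CXCL5 fell in MDA-MB-436 (-1.13 in low and -3.49 in standard serum).

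The AREG values are uncertain in level because GRCh37 holds a second copy, AREGB (chr4:75480629-75490486), whose start lies 170 kb away. Of all 100-base windows of the AREG gene, 85.2% occur exactly in AREGB, as do 78% of 150-base windows. STAR's gene counts leave out reads that map to more than 1 place, so such reads are missing from both genes. AREGB had 0 to 15 counts per library. Adding its counts to AREG, a check chosen after seeing the data, left AREG without a call in each reporter comparison, with log2 fold changes of -0.05 to 0.57. This sum does not bring back the reads that map to both genes, so it cannot show whether AREG differed in those reads.

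The promoters of the members were searched because the sorted cells differ in a Tcf reporter. RefSeq windows of 250 bases before to 50 after the start (GRCh38.p14 table) were available for 8 members, 10 windows in all, and each matched GRCh37 exactly. Searched on both strands, the Tcf/Lef motif ATCAAAG occurred in 0 of the 10 windows (2.62% of all 35116 windows hold it), the AP-1 motif TGANTCA in 2 (7.71%) and the GC box GGGCGG in 6 (45%). No window held more than 1 of the 3 kinds of motif, 2 neighbouring GC boxes of HBEGF overlap by 1 base, and a match or its absence describes only these letters in this window. The 250 bases before the start of EREG, AREG and HBEGF are shown because EREG and HBEGF changed and AREG did not pass, and of ERBB4 as the receptor with the largest change. The bases are printed in lower case with GC boxes, on either strand, in capitals. EREG lies at chr4:75230612-75230861 and AREG at chr4:75310603-75310852 (plus strand), and HBEGF at chr5:139726189-139726438 and ERBB4 at chr2:213403527-213403776 (minus strand), all on GRCh37.
EREG: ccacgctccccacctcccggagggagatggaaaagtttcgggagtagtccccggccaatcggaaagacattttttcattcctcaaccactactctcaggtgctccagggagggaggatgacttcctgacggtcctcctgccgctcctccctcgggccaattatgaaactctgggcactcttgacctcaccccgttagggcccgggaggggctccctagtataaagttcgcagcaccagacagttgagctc
AREG: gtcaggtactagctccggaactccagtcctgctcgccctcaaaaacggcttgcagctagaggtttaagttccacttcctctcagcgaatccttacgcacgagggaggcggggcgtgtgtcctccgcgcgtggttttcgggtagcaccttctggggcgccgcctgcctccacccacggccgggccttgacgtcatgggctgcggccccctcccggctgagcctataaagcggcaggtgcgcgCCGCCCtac
HBEGF: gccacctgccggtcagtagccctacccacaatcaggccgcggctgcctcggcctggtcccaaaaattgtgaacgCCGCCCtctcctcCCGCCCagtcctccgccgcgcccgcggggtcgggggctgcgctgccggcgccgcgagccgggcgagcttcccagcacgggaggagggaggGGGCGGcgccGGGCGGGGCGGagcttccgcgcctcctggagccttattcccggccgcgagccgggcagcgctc
ERBB4: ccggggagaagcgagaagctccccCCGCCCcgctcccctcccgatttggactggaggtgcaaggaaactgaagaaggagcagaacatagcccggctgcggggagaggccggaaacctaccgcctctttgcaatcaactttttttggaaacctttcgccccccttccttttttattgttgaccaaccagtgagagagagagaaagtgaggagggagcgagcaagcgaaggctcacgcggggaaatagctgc

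No GC box occurs in the EREG window, whereas the HBEGF window holds 5. The AREG window was found exactly at a further place, chr4:75480379-75480678, at the start of AREGB. The AP-1 motif occurred in the ERBB2 window and in the second EGFR window, which starts inside the gene.

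Patterns most like each member were sought by Pearson's r of log2(CPM + 0.5) over the 16 libraries after centring within each serum, as a description. The points share libraries, and most of the spread is between the lines. For EREG the closest of 15286 genes were ADAMTS9 (r = 0.943), SYT9 (0.901) and TIFA (0.896). For HBEGF they were SEH1L (0.997), C12orf29 (0.996) and EPHA2 (0.995), for ERBB3 SOX13 and MYLK (each 0.991), and for ERBB4 ZNF619 (0.928), WDR19 (0.926) and MTURN (0.918). Among the members, HBEGF and NRG1 were the closest pair (r = 0.992), and EREG and ERBB4 were at -0.601.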

How the data were processed

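Read counts per gene and TPM values (length-scaled transcript shares) deposited by the authors were used as they stood, 1 table of each per serum condition with 1 column per library. The authors removed ribosomal reads with Bowtie, aligned to hg19 with STAR (version 2.6.1a in the submitters' processing notes) and counted reads per Gencode gene. Per the study's methods, low serum libraries were ribosome-depleted and standard serum libraries were poly(A)-selected and run on another sequencer, while the labels name 1 kit for all. Strand use in counting is not given in the sources used here.

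Of 57820 gene identifiers, 55538 were matched to the GRCh37 annotation and 19404 were protein coding. Each serum was fitted separately with edgeR 4.0.16 (R 4.3.3), keeping protein-coding genes with at least 10 counts over 8 libraries, with TMM factors, robust quasi-likelihood dispersions and 4 groups. P-values were two-sided and adjusted by the Benjamini-Hochberg method over all genes tested. A DEG had an adjusted p under 0.05 and a log2 fold change of at least 1 in size. The standard error was the log2 fold change divided by the root of the F statistic. Alternatives were DESeq2 1.42.0, limma 3.58.1 on log2(TPM + 1) and log2(TPM + 0.1), other filters and scalings, a replicate block and leaving out each library.

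On simulated counts for MDA-MB-231 7TGP-POS against 7TGP-NEG cells, 200 of 200 genes changed 4-fold were called among 16069 in low serum, and 199 of 200 among 15414 in standard serum. The simulation had a small fixed spread between replicates and changed only genes above a minimum mean count. It checks that the code runs as meant, and cannot show how well changes under 2-fold or in genes with few reads are found. The text names the 10 members and, from each pathway list, at most 3 DEGs per comparison by adjusted p, plus genes beside members on the chromosome. The members and lists were chosen with earlier results of these data known. The study calls the replicates biological duplicates. Where cultures were not separate, p-values measure the spread between libraries only. Replicate numbers were not taken as pairs. The values of 1 marker gene are not reported here.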

Additional observations from a re-analysis of the deposited data

Results flagged for a closer look

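The reporter comparison differed between the lines for 8 of the 10 members in low serum (45.7% of all genes) and 4 in standard serum (41.2%). The difference itself was tested (edgeR quasi-likelihood interaction, MDA-MB-231 minus MDA-MB-436, adjusted over all genes). In standard serum the count of members is near the share of all genes. In low serum the log2 differences were -0.66 for ERBB2, -1.36 for ERBB3, -2.3 for ERBB4, 1.38 for TGFA, 1.66 for EREG, 1.24 for HBEGF, -0.89 for BTC and 0.38 for NRG1. In standard serum they were -0.64 for EGFR, -1.76 for ERBB3, -2.73 for ERBB4 and 0.95 for EREG. ERBB4 rests on 3 to 45 counts per library.

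For 4 genes, the libraries of the 7TGP-POS group lay on one side of those of the 7TGP-NEG group in low serum and on the other side in standard serum. Of all genes tested in both, 7.12% did so in MDA-MB-231 and 9.3% in MDA-MB-436. ERBB2 in MDA-MB-436 had log2 fold changes of 0.27 in low and -0.020 in standard serum, where the nearest libraries of the groups were at 54.8 and 54.7 CPM, and TGFA in MDA-MB-231 had 0.45 and -0.21. EREG in MDA-MB-436 had -1.22 and 0.074, and HBEGF in MDA-MB-436 had -0.74 and 0.46. These differences between the serum conditions were not tested, because serum, days in culture and library preparation cannot be told apart.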

How the results depend on the processing

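With adjusted p alone and no 2-fold threshold, the members called were 7 in MDA-MB-231, 7 in MDA-MB-436 and 8 for the difference between the lines under low serum, against 5, 6 and 4 for standard serum. In the same order, 38.9%, 52%, 45.7%, 33%, 49.5% and 41.2% of all genes passed. With limma on log2(TPM + 0.1), 1 member was called in MDA-MB-231 in low serum as against 0. With limma on log2(TPM + 1), 3 were called for the difference in low serum as against 5, 0 in MDA-MB-436 in standard serum as against 1, and 1 for the difference in standard serum as against 2. Leaving out 1 library gave 0 to 2 members in MDA-MB-436 in standard serum, with 0 without the first 7TGP-POS library and 2 without the first 7TGP-NEG library.

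Some log2 fold changes that did not pass as reported changed sign, and 0 of them passed with the changed sign. With limma on log2(TPM + 1) and log2(TPM + 0.1), these were EGFR (-0.102 and -0.103) and AREG (-0.12 and -0.13) in MDA-MB-231 in low serum, AREG (-0.030 and -0.051) and NRG1 (-0.11 and -0.15) in MDA-MB-436 in low serum, BTC between the 7TGP-NEG sublines in low serum (-0.12 and -0.16), and ERBB2 (0.074 and 0.077) and BTC (0.058 and 0.071) in MDA-MB-436 in standard serum. The NRG1 difference between the lines in standard serum was 0.12 on log2(TPM + 1). With library totals in place of TMM factors, chosen after seeing the data, EGFR in MDA-MB-436 in low serum was 0.035, AREG in MDA-MB-231 in standard serum 0.0067, and ERBB2 and BTC in MDA-MB-436 in standard serum 0.043 and 0.040. Leaving out 1 library gave ranges across 0 for AREG in MDA-MB-436 (-0.063 to 0.36 in low and -0.062 to 1.07 in standard serum), NRG1 in MDA-MB-436 in low serum (-0.020 to 0.19), BTC between the 7TGP-NEG sublines in low serum (-0.12 to 0.59), EGFR (-0.17 to 0.015) and AREG (-0.12 to 0.0062) in MDA-MB-231 in standard serum, BTC in MDA-MB-436 in standard serum (-0.17 to 0.11), and the AREG difference between the lines (-0.27 to 0.15 in low and -1.13 to 0.0022 in standard serum). The cause was not tested.

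The deviations of same-numbered replicates from their group means correlated at r of -0.21 to 0.08 in low serum, with 0 of 6 pairs of groups over 0.1, and at -0.051 to 0.405 in standard serum, with 5 of 6 over 0.1. The fit with a replicate block changed no call in 100 member results. Where leaving out a library leaves 1 in a group, that library is assumed to vary like the other groups. Depth limits ERBB4 most, whose 3 to 45 counts per library gave its reporter log2 fold changes an SE of 0.29 to 0.53.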
